A study of Mus musculus with 10 samples.

Results

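Glycogen is the branched glucose polymer that muscle cells keep as a local store of sugar. Glycogen synthase lengthens its chains from UDP-glucose, the branching enzyme adds branch points, and glycogen phosphorylase releases glucose 1-phosphate from the chain ends. Phosphorylase is switched on by phosphorylase kinase, synthase is switched on by protein phosphatase 1 held at the particle by targeting subunits, and a separate route digests glycogen inside lysosomes. The 9 genes described here were chosen by name for these steps, by no rule on their values. Earlier results of these data were known when they were chosen. The genes are Gys1, Gbe1 and Ugp2 of synthesis, Pygm, Pygb and Pygl of phosphorolysis, Phka1 and Ppp1r3c of control, and Gaa of the lysosome. They are 9 of 34607 gene names on the array and have 14 of its 55681 probes.

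The cells were C2C12, a mouse myoblast line that can form myotubes, kept in high-glucose medium with serum. They were transfected by lipid reagent with 150 nM of either a synthetic miR-142-3p (the mimic) or a scrambled RNA (the scramble), the transfection efficiency being put at about 60%, and expression was measured at 72 hours. By label there were 6 mimic and 4 scramble samples, described as independent transfections, and every scramble title also bears the word re-analysis without saying what was analysed again. According to the file headers, however, the 10 files are scans of 5 arrays on 1 slide, made on 2 days. Both scans of an array were therefore averaged, which leaves n at 3 mimic arrays and 2 scramble arrays. Signals of 2 scans of a position correlated at r = 0.989 to 0.992 over 14153 bright spots, against 0.895 to 0.990 for other pairs. Nothing shows which culture each array came from, so the spread behind every p-value is that of these arrays and may in part be technical.

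On each scan, 25.4% to 34.6% of spots stood well above background. Of the myoblast markers, 4 of 5 measured genes were lower with the mimic, Pax7 was well above background on no scan and Myf5 on 3 of 10. Summed over the 5 measured, the linear signal relative to the scan's 75th percentile was 176 to 189 on mimic arrays and 322 to 390 on scramble arrays. Of the 22 markers of differentiated muscle, 14 stood well above background on all 10 scans, and of these 10 were lower and none higher with the mimic (median log2 difference −2.31). The summed signal of these 14 was 108 to 132 with the mimic and 697 to 877 with the scramble. A further 6 were measured that stood well above background on all 4 scramble scans but on only 0 to 5 of the 6 mimic scans. Among them was Myog, with a mean log2 signal of −0.62 with the mimic and 6.45 with the scramble. Myh1 and Casq2 were well above background on no mimic scan and so have only a bound with the mimic. Myh2 was well above background on no scan. Of the leukocyte markers, 1 of 4 measured was higher (Cd68, mean log2 signal 4.96 with the mimic and 0.12 with the scramble). Itgam, Csf1r and Cd3e had log2 differences of 0.15, 0.17 and 0.11 and were not called. The summed signal of the 4 was 48.1 to 52.7 with the mimic and 17.8 to 18.3 with the scramble, a gap carried by Cd68. Ptprc, Lyz2 and Tyrobp were well above background on no scan. The same held for the 3 hepatocyte and 4 adipocyte markers, and of 4 neuronal and glial markers only Snap25 was measured, and it was not called. In such bulk RNA, fewer cells of a type and less RNA per cell cannot be told apart. The part of differentiation in the values below was not tested.

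The transfected microRNA is shown because it is the only designed difference between the groups. Its mature form in RefSeq (GRCm38.p6, chromosome 11, 87756903 to 87756925, plus strand) has 23 bases, with the seed, bases 2 to 8, in capitals:
mmu-miR-142a-3p: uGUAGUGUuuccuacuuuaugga
The DNA letters that pair with this seed, ACACTAC, occur in 0 of the 14 member probes, read on the transcript strand, and in 0.259% of all probes. A probe covers 60 bases, so this says nothing about the rest of each transcript. A further pair of sequences is shown because these probes did not read as the brightest probe of their gene did: the Gbe1 probe stayed dim on all 10 scans, and the Gaa probe had a difference of the opposite sign:
Gbe1 A_55_P2129222: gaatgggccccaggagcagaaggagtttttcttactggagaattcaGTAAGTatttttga
Gaa A_55_P2024439: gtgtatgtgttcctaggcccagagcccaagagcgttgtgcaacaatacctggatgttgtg
The capitals in the Gbe1 probe mark GTAAGT at its bases 47 to 52, letters that often follow an exon at a splice donor. That probe was designed on an Ensembl transcript and lies at chr16:70361227-70361286, and the Gaa probe lies at chr11:119136014-119136073, in the mm9 build of the files. No mm9 gene annotation was used here, so exon or UTR positions of probes are not given.

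Values are log2 signals minus the scan's 75th percentile, so that 0 stands for that percentile. As 25.4% to 34.6% of spots on a scan stood well above background, that percentile lies not far from the dim spots. With scaling to detected probes only, the median log2 difference of all genes tested was −0.04 in place of 0.09. Of the 9 genes, 7 were measured, and 1 of these changed at an adjusted p below 0.05 in limma across 13677 genes, where 9.74% of all genes did. That gene was Gbe1, higher with the mimic, a direction in which 5.86% of all genes were called. None of the 7 was lower, against 3.88% of all genes. Their median log2 difference was 0.14, and that of all genes tested was 0.09. The groups did not overlap for 3 of the 7 (Gys1, Gbe1 and Ugp2), and 42.4% of all genes tested showed the same, so that share is near the background. At an unadjusted p below 0.05, 1 of the 7 passed (limma), beside 25.3% of all genes.

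**Figure D1:**
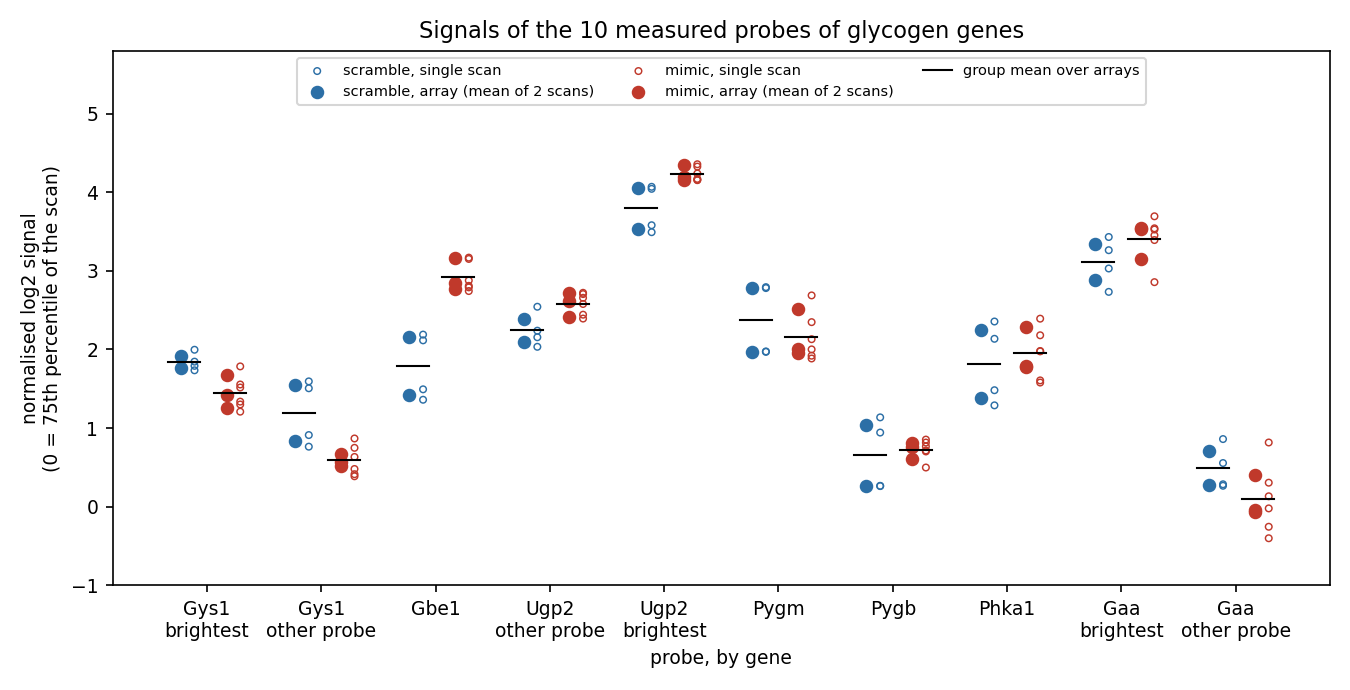
Normalised log2 signal (y axis, 0 is the 75th percentile of the scan) of the 10 measured probes of glycogen genes (x axis), for scramble in blue and mimic in red. Filled points are arrays (3 mimic, 2 scramble), open points single scans and bars group means over arrays. Gbe1 on the mimic arrays lies between 2.77 and 3.16, above both scramble arrays, while the groups of Pygm, Pygb, Phka1 and both Gaa probes overlap.

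Gbe1, the branching enzyme, read 2.77, 3.16 and 2.84 on the mimic arrays and 2.15 and 1.43 on the scramble arrays. All 3 mimic arrays were above both scramble arrays, and the scramble arrays stood further apart than the mimic arrays did. The mean was 2.92 ± 0.21 (SD, n = 3) with the mimic and 1.79 ± 0.51 (SD, n = 2) with the scramble, a rise of 2.19-fold with 95% limits of 1.44 and 3.35 (log2 difference 1.13 ± 0.27 SE, limma adjusted p = 0.0341). Scans of the first day gave 1.10 and those of the second day 1.16. Arrays in the first row of the slide (2 mimic, 1 scramble) gave 0.65 and those in the second row (1 each) gave 1.73, and with the row as a block the value was 1.12 (limma adjusted p = 0.0833). Leaving out a single mimic array, 1, 2 or 3, gave 1.21, 1.02 and 1.17, none of which passed (limma adjusted p = 0.0881, 0.119 and 0.0849). Leaving out scramble array 2 gave 0.77 (limma adjusted p = 0.116) and leaving out scramble array 1 gave 1.50 (0.00583), in both cases with 1 scramble array assumed to vary as the mimic arrays did. The call was also lost with scaling to the array median (1.21, adjusted p = 0.0714) and without the filter on dim probes (adjusted p = 0.281).

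The rise rests on the probe at chr16:70569840-70569899, which was well above background on all 10 scans. The other Gbe1 probe, printed above with its GTAAGT letters, was well above background on none. Its signal was −3.53, −2.41 and −3.45 on the mimic arrays and −3.05 and −2.62 on the scramble arrays. It was not well above background in either group, so it gives no fold.

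Gys1 encodes the muscle form of glycogen synthase, and both of its probes were lower on every mimic array than on either scramble array. The brighter probe (chr7:52711790-52711849) read 1.43, 1.67 and 1.25 with the mimic and 1.76 and 1.92 with the scramble. Its difference of −0.39 ± 0.21 (SE) did not pass the threshold (limma adjusted p = 0.290), and the 95% limits, −0.88 to 0.10, leave room for up to a 1.84-fold fall. The other probe (chr7:52711158-52711217) read 0.57, 0.67 and 0.52 with the mimic and 0.84 and 1.55 with the scramble. In a fit over all 17455 measured probes, of which 9.5% were called (5.41% higher and 4.08% lower), its difference was −0.61 ± 0.25 (SE, unadjusted p = 0.0407, limma adjusted p = 0.177). Both probes were negative on both scan days and in both slide rows.

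Ugp2 makes UDP-glucose, the building block used by glycogen synthase. Its brighter probe (chr11:21221975-21222034) read 4.16, 4.34 and 4.20 with the mimic and 4.06 and 3.54 with the scramble. The groups did not overlap, though mimic array 1 and scramble array 1 lay close together. The difference was 0.44 ± 0.22 (SE, limma adjusted p = 0.265), with 95% limits of −0.08 and 0.95. The other probe (chr11:21221281-21221340) read 2.62, 2.71 and 2.42 with the mimic and 2.39 and 2.10 with the scramble, a difference of 0.34 ± 0.21 (SE, limma adjusted p = 0.352). Without scramble array 1 the brighter probe had 0.70, and without scramble array 2 it had 0.18, each with 1 scramble array left.

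The phosphorylases are 3 paralogs named for muscle (Pygm), brain (Pygb) and liver (Pygl). Pygm (probe at chr19:6398389-6398448) read 2.01, 2.52 and 1.96 with the mimic and 2.79 and 1.97 with the scramble, so the groups overlapped. Its difference was −0.22 ± 0.30 (SE, limma adjusted p = 0.689), with 95% limits of −0.90 and 0.46. The lower limit is a 1.86-fold fall. Without scramble array 1 Pygm had 0.19, the opposite sign.

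Pygb (probe at chr2:150656541-150656600) read 0.61, 0.76 and 0.81 with the mimic, inside the range of the scramble arrays, 0.26 and 1.04. The difference was 0.07 ± 0.26 (SE, limma adjusted p = 0.893), with 95% limits of −0.52 and 0.67. Its sign is not settled: it was −0.061 when scans were scaled to detected probes only, −0.0073 on the second scan day and −0.31 without scramble array 1. Pygl (probe at chr12:71291855-71291914) was well above background on no scan of either group, with signals between −3.47 and −2.31 on the 5 arrays, and gives no fold.

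Among the controlling genes, Phka1 encodes the alpha subunit of phosphorylase kinase found in muscle. Its probe (chrX:99710704-99710763) read 1.78, 2.29 and 1.79 with the mimic and 2.25 and 1.39 with the scramble. Both groups spanned much the same range, and the difference was 0.14 ± 0.30 (SE, limma adjusted p = 0.814, 95% limits −0.55 to 0.82). It took the opposite sign without scramble array 2 (−0.29) and without mimic array 2 (−0.03). Ppp1r3c, a targeting subunit that holds protein phosphatase 1 at glycogen, was well above background on no scan. Its probe (chr19:36806457-36806516) gave −2.91, −1.43 and −2.64 on the mimic arrays and −2.86 and −2.81 on the scramble arrays.

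Gaa encodes the lysosomal enzyme acid alpha-glucosidase, and its 2 measured probes differed in sign. The brighter probe (chr11:119146697-119146756) read 3.15, 3.54 and 3.53 with the mimic and 3.35 and 2.88 with the scramble, a difference of 0.30 ± 0.24 (SE, limma adjusted p = 0.473, 95% limits −0.25 to 0.84). Without scramble array 1 it was 0.53, and without scramble array 2 it was 0.063. The probe printed above read −0.05, 0.40 and −0.06 with the mimic and 0.71 and 0.28 with the scramble, a difference of −0.40 ± 0.24 (SE, limma adjusted p = 0.346). In both probes the groups overlapped and neither difference passed the threshold. The remaining Gaa probe, at chr11:119134572-119134631, was well above background on no scan.

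**Figure D2:**
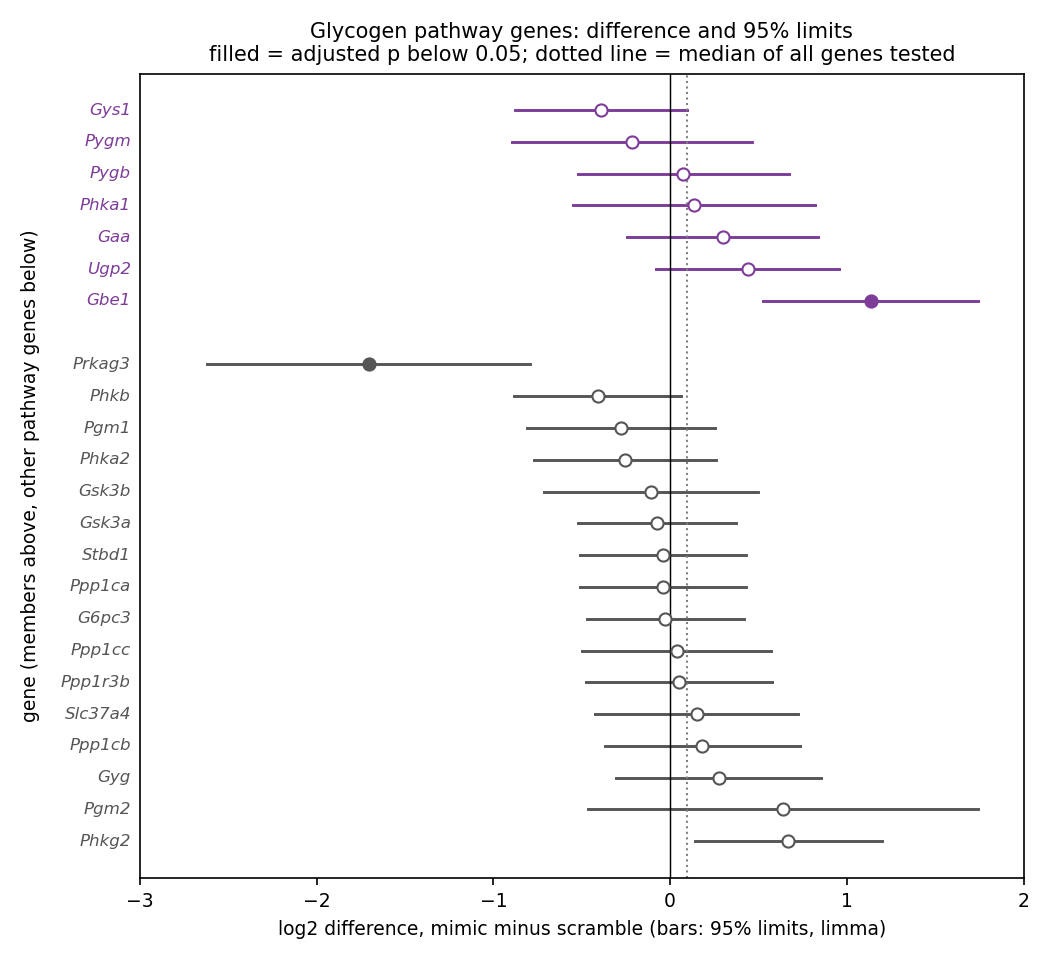
Log2 difference, mimic minus scramble (x axis), with 95% limits from limma for the 7 measured members (purple, above) and 16 of the 17 other measured genes of the glycogen pathway (grey, below). Filled points passed an adjusted p of 0.05 (Gbe1 and Prkag3), and the dotted line is the median of all genes tested, 0.09.

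The pathway list held 30 further names, of which 29 were on the array and 17 were measured. Of these 17, 1 was lower and none was higher, where 3.88% and 5.86% of all genes were, so the count is near that background. Their median log2 difference was −0.04. The lower gene was Prkag3, a regulatory gamma subunit of the AMP-activated protein kinase found mainly in skeletal muscle. It read −1.49, −2.19 and −3.06 with the mimic and −0.55 and −0.53 with the scramble, a difference of −1.70 ± 0.40 (SE, limma adjusted p = 0.0340). Its probe stood well above background on 3 of 4 scramble scans but on only 1 of 6 with the mimic, where its level is close to background. With another background correction, normexp, the difference was −0.57 (limma adjusted p = 0.106). Prkag3 also missed the threshold when scans were scaled to detected probes (−1.84, limma adjusted p = 0.0513). It missed it as well without the filter on dim probes, with the slide row as a block and with an intensity trend (adjusted p = 0.194, 0.0859 and 0.0584). Leaving out mimic array 2 gave −1.73 (limma adjusted p = 0.0975), and leaving out scramble array 2 gave −1.69 (adjusted p = 0.114).

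Of the 6 other synthesis genes on the array, 3 were measured, and none of these 3 was called. Gyg, the glycogenin that primes a new glycogen particle, had 0.27 ± 0.25 (SE). Pgm1, a phosphoglucomutase that interconverts glucose 1-phosphate and glucose 6-phosphate, had −0.28 ± 0.23, and Pgm2 had 0.64 ± 0.48. The Pgm2 probe stood well above background on only 3 of 6 mimic and 1 of 4 scramble scans, so its level is close to background. The names Pgm1 and Pgm2 are those of RefSeq, which are exchanged relative to the array's own annotation. In the phosphorylase kinase complex, Phkg2, a catalytic gamma subunit, had the smallest p of any gene in the list that was not called. It read 2.04, 2.20 and 2.19 with the mimic and 1.76 and 1.19 with the scramble (0.67 ± 0.23 SE, unadjusted p = 0.0193, limma adjusted p = 0.116). Without scramble array 1 Phkg2 had 0.96, and without scramble array 2 it had 0.38, each with 1 scramble array left. The beta subunit Phkb had −0.41 ± 0.21 and the alpha subunit Phka2 −0.26 ± 0.22.

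Of the 7 targeting subunits of protein phosphatase 1, only Ppp1r3b was measured, with 0.05 ± 0.23 (SE). The muscle form Ppp1r3a, Ppp1r3c and the other 4 were well above background on no scan. The 3 catalytic subunits Ppp1ca, Ppp1cb and Ppp1cc lay between −0.04 and 0.18. The synthase kinases Gsk3a and Gsk3b had −0.07 ± 0.19 and −0.11 ± 0.26, and the glycogen-binding lysosomal adaptor Stbd1 −0.04 ± 0.20.

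The scramble arrays differed from each other in most members. Array 2 was below array 1 by 0.73 for Gbe1, 0.81 for Pygm, 0.86 for Phka1, 0.52 for Ugp2 and 0.47 for Gaa. It was above array 1 by 0.78 for Pygb and 0.16 for Gys1. The median size of this gap was 0.73 over the 7 members and 0.38 over all genes tested, and the gaps of Gbe1, Pygm, Pygb and Phka1 lay between the 81.2nd and 88.1st percentile of all genes. Across the mimic arrays the median range of the members was 0.39, beside 0.34 for all genes. With 2 scramble arrays, which of them stands for the control cells was not tested.

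The log2 signal of Gbe1 minus that of another gene on the same array is free of any scaling between arrays and shows unequal change only. Relative to Phka1, Gbe1 was 0.99, 0.87 and 1.05 with the mimic and −0.09 and 0.04 with the scramble. Relative to Pygm it was 0.76, 0.64 and 0.88 with the mimic and −0.63 and −0.55 with the scramble. The scramble arrays lay closest together in these comparisons, at SDs of 0.10 and 0.06 (n = 2), where Gbe1 alone had 0.51. They lay further apart than for Gbe1 alone relative to Gys1 (SD 0.62) and Pygb (SD 1.06), and had SDs of 0.15 and 0.18 relative to Ugp2 and Gaa. Relative to Gys1 the mimic arrays read 1.34, 1.49 and 1.59 and the scramble arrays 0.39 and −0.49. Relative to Pygb they read 2.16, 2.40 and 2.03 with the mimic and 1.89 and 0.39 with the scramble. The mimic arrays were above both scramble arrays against each of the 6 other measured members, with mean shifts from 0.70 against Ugp2 to 1.53 against Gys1. All 6 comparisons reuse the same Gbe1 values, which did not overlap on their own, so they are not 6 separate results. The groups did not overlap for 42.4% of single genes tested, and the share for such differences was not computed. These shifts were taken after Gbe1 was seen to be called and are given with no test.

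**Figure D3:**
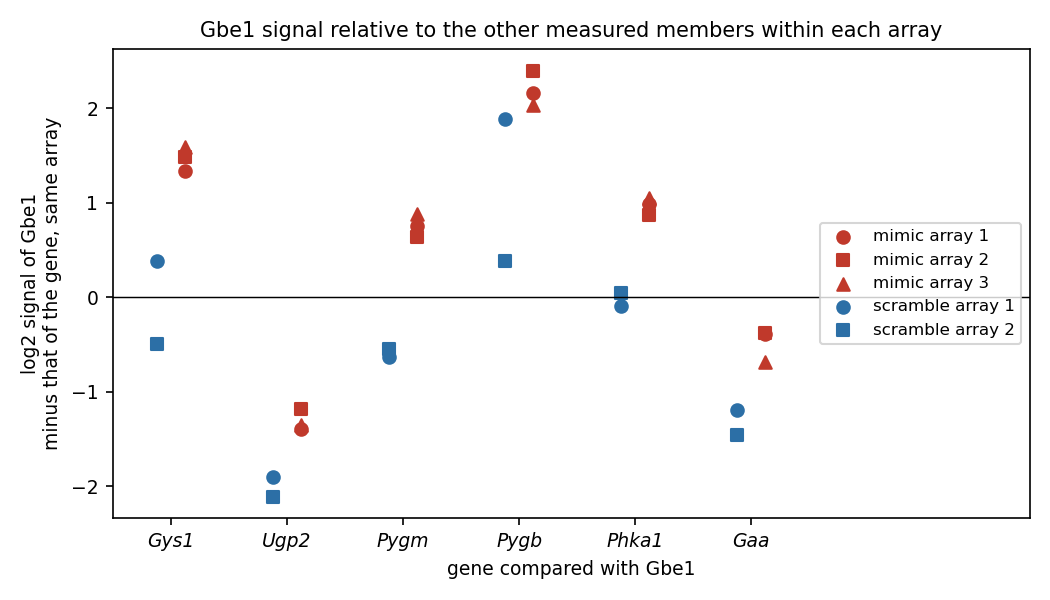
Log2 signal of Gbe1 minus that of each other measured member on the same array (y axis), by gene compared (x axis), for mimic arrays in red and scramble arrays in blue. All mimic points lie above the scramble points for each gene, with the same Gbe1 values used throughout. The scramble pair lies closest together against Pygm and Phka1.

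The genes whose pattern over the 5 arrays was most like that of Gbe1 were Pttg1, Meis1 and Zwint, out of 10473 measured genes with a symbol. Likeness was the root mean square difference between log2 deviations from each gene's own mean, which was 0.03 for Pttg1 and 0.04 for each of the others. Pttg1, which encodes securin, read 5.62, 5.99 and 5.74 with the mimic and 5.05 and 4.34 with the scramble. With 5 arrays on 1 slide such a likeness is a description of these arrays.

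**Figure D4:**
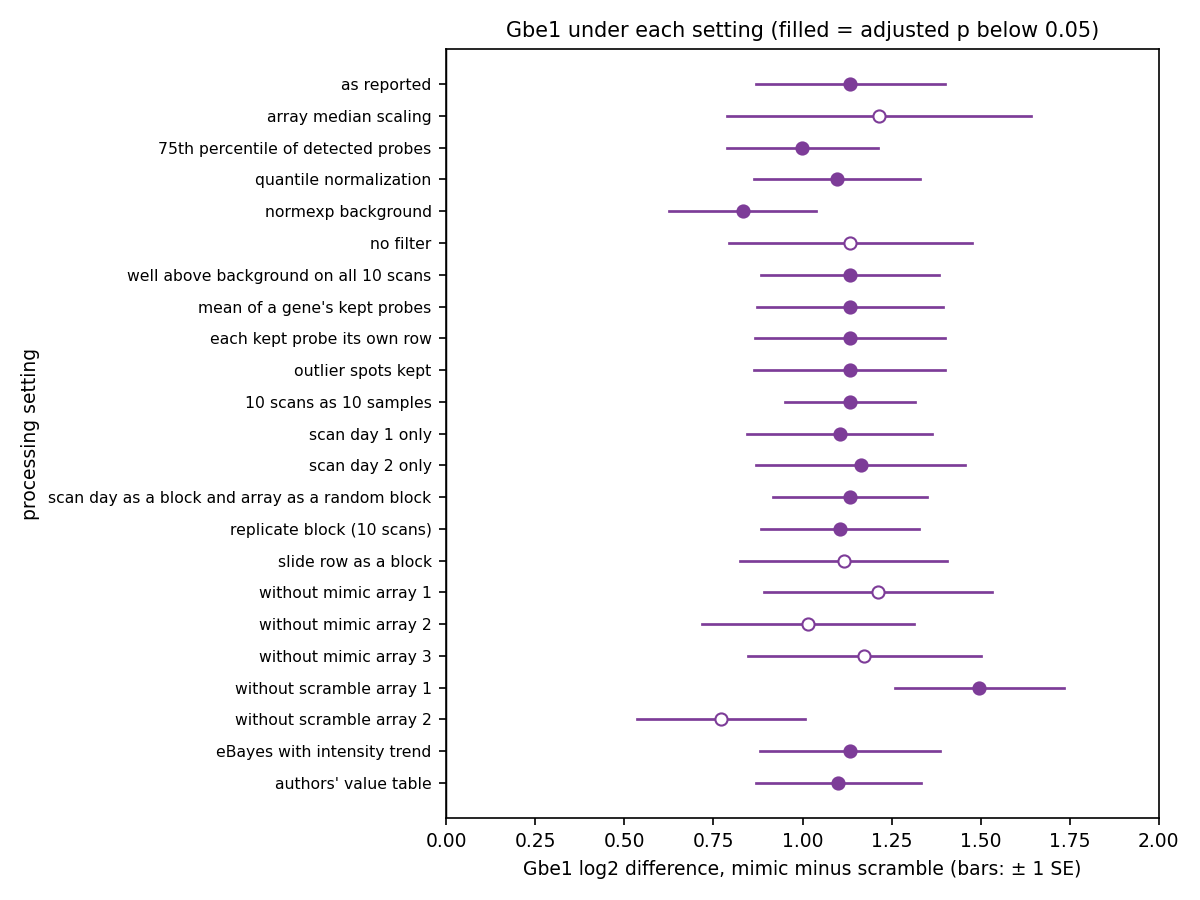
Log2 difference of Gbe1, mimic minus scramble (x axis, bars are 1 SE to each side), as reported and under each of 22 other processing settings (y axis). Filled points passed an adjusted p of 0.05. All values lie between 0.77 (without scramble array 2) and 1.50 (without scramble array 1), and 7 of the 22 did not pass.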

How the data were processed

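The deposited scanner files hold spot intensities, 1 colour (Cy3), from Agilent's Feature Extraction (version 12.0.0.7 per the file headers, 10.7.3.1 per the submitters' processing notes), already corrected for background and spatial trend, with 0 or 1 marks per spot (other values) from the same software. The deposited value table holds linear intensities, blank for dim probes, and its values tracked the scans at r of at least 0.998. Its column medians ran from 175.5 (24184 values) to 353.8 (18897 values), and were lower the more values a column held. Differences from it lay close to those with quantile normalization (Gbe1 1.10 and 1.10, Gys1 −0.44 and −0.44). It may therefore not be an alternative separate from that one. Which between-array step made it was not tested.

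Outlier spots were dropped, log2 signals averaged per probe, the scan's 75th percentile subtracted, and scans of a position averaged. The members' kept probes had values on all scans. Probes well above background on at least 4 of 10 scans were kept (17455), the brightest standing for its gene (13677 genes). Names came from RefSeq (28026 probes by accession, 3418 by symbol, 295 by synonym; 23942 kept the file's). Groups were compared with limma 3.58.1 (R 4.3.3), Benjamini-Hochberg adjustment over all genes, threshold 0.05. The fit was tested on simulated data, with 200 of 13630 genes changed in each of 20 runs. It recovered 86.2% of 4-fold, 6.87% of 2-fold and 0.152% of 1.5-fold changes, and 4.0% of its calls were false. Fewer genes changed there than the 1332 called here, so recovery in these data may differ. The simulated noise was independent for each gene and array, with variances drawn from the fit's own estimate. The 4.0% is therefore not an error rate for these data. Array number limits precision, and a gene not called may still have changed.

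No pairing by replicate number was seen between single scans: deviations of same-numbered scans correlated at −0.28 to 0.19, and no scramble scan correlated best with its own number. Every scramble scan correlated best with a mimic scan of the same day, so scan day enters this check. A pairing of arrays was not tested. Members, lists and tests were chosen with earlier results of these data known. Named are all members, called pathway genes, the 6 others with the smallest p, and the 3 genes most like the member with the smallest p; Ppp1r3b, the phosphatase catalytic subunits, Gsk3a, Gsk3b and Stbd1 were added by role after values were seen. Some genes of the lists are counted but not reported here by name. Alternatives covered scaling, background, filter, probes, outlier spots, scans, blocks, left-out arrays, moderation and the value table.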

Additional observations from a re-analysis of the deposited data

Results flagged for a closer look

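In the brighter Gaa probe, the scan of mimic replicate 4 stood apart from the other mimic scans. It read 2.86, where the nearest other scan read 3.39 and the highest 3.69. The other scan of the same array position read 3.45, so the gap lies within that array. Of 28 groups of scans examined (14 probes in each treatment group), this was the only 1 to stand apart in this way, and chance alone flags about 1 in 20 groups, or about 1 among 28. That rate is for independent values, while these scans are repeat scans of 3 or 2 arrays.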

How the results depend on the processing

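The 7 measured members under 22 alternatives gave 154 values, of which 137 kept direction and side of the threshold. The count of called members, 1 as reported, was 0 with scaling to the array median, without a filter on dim probes and with the slide row as a block, 3 with 10 scans taken as 10 samples (Gbe1, Ugp2 and Gys1), and 0 to 2 without each array. The other pathway genes, 1 called as reported, had 0 calls with scaling to detected probes, normexp background, the filter of all 10 scans, the slide row as a block, an intensity trend or the value table, 2 with 10 scans as samples, and 0 to 2 without each array. Calls among all genes, 1332 as reported, were 761, 407, 810 and 4154 with median scaling, no filter, the row block and 10 scans, and 641 to 3671 without each array. With the replicate number as a block over 10 scans, which counts rescans as samples, 1 member, 2 other pathway genes and 2336 genes were called, with Gbe1 at 1.11 and Phkg2 at 0.68 (adjusted p = 0.0387). Signs turned for Pygb with scaling to detected probes (−0.061) and on the second day (−0.0073), and for Gaa with the mean of its probes (−0.050). Without each array Pygm ran from −0.62 to 0.19, Phka1 from −0.29 to 0.57, Pygb from −0.31 to 0.46, Ugp2 from 0.18 to 0.70, Gaa from 0.063 to 0.53, Phkg2 from 0.38 to 0.96, Gyg from −0.056 to 0.60, Phka2 from −0.51 to 0.00092 and Pgm2 from −0.10 to 1.37. The median of all genes was 0.18 with median scaling and −0.04 with scaling to detected probes, where Gbe1 had 1.21 (adjusted p = 0.0714) and 1.0 (adjusted p = 0.0323). Without a filter Gbe1 kept 1.13 (adjusted p = 0.281), with more genes tested. The cause of the other changes was not tested.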
